A study of Mus musculus with 18 samples.

Results

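Aminoacyl-tRNA synthetases were taken as the genes whose array annotation gives a synthetase symbol (1 letter followed by ars, with or without 1, 2 or l at the end, and Eprs, Farsa and Farsb). This gave 35 of the 18191 genes measured, 19 that act in the cytosol and 16 that act in mitochondria, and all 35 were found in the RefSeq gene table. A probe set is the group of short probes that reads a transcript, and each gene was represented by its probe set of highest mean value. Of the 35, 23 had several probe sets, and the whole family had 72.

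The values come from 18 Affymetrix mouse expression arrays of RNA from cultured motoneurons. Spinal cords of E12.5 mice supplied the cells, which were selected through their p75 neurotrophin receptor and grew for 7 days in microfluidic chambers that lead axons into a compartment of their own. The growth factor BDNF (20 ng/ml) was given to the axons only, while CNTF (5 ng/ml) was given to both compartments. Smn encodes the survival motor neuron protein, whose human counterpart is deficient in spinal muscular atrophy. Each compartment, axonal and somatodendritic (cell bodies with dendrites), had 3 arrays of cells given a lentivirus with a short hairpin RNA against Smn (knockdown), 3 of cells given the empty lentiviral vector, and 3 of untreated wild-type cells.

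A synthetase joins an amino acid to its matching tRNA and so sets the accuracy of the genetic code. Cytosolic and mitochondrial translation use separate enzymes, except that Gars and Kars also serve mitochondria, and a group of the cytosolic enzymes sits in a multi-synthetase complex held together by scaffold proteins. Dominant variants in several human cytosolic synthetase genes cause inherited motor neuropathies. When uncharged tRNA builds up, the kinase GCN2 can lead to translation of the transcription factor ATF4, whose targets include many cytosolic synthetase genes.

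ATF4 and its partners of the C/EBP family bind a composite element, searched here as TGATGNAA on both strands. The promoter sequences of 5 members that the results turn on are shown because 3 of them (Yars, Sars and Mars1) rose in knockdown cell bodies, Gars fell, and Aars did not pass the test used. Each is the 250 bases before the gene's start, 5′ to 3′, from RefSeq on build GRCm38.p6, and capitals mark a match to the element, which lies on the minus strand in both. They are Yars, chr4:129189653-129189902 on the plus strand, Sars, chr3:108445260-108445509 on the minus strand, Mars1, chr10:127311787-127312036 on the minus strand, Gars, chr6:55037751-55038000 on the plus strand, and Aars, chr8:111033592-111033841 on the plus strand.
Yars: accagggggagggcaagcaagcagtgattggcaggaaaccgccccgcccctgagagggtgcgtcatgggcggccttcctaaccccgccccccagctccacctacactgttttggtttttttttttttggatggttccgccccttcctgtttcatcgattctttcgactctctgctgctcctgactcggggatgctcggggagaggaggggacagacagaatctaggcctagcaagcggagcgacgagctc
Sars: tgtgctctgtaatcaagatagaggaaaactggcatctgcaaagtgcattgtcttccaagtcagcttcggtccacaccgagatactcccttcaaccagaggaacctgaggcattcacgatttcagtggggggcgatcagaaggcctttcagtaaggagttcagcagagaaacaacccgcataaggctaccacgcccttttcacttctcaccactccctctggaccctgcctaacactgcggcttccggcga
Mars1: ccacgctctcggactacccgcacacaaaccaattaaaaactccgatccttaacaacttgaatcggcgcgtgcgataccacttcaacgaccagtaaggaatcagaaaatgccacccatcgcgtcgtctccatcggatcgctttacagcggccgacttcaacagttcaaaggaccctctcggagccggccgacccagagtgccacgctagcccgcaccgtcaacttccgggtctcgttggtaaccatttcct
Gars: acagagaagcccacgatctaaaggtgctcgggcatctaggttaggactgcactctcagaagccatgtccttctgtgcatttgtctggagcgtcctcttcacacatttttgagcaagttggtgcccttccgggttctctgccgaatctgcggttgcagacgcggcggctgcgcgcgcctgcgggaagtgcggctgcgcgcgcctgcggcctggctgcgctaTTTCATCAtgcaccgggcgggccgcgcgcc
Aars: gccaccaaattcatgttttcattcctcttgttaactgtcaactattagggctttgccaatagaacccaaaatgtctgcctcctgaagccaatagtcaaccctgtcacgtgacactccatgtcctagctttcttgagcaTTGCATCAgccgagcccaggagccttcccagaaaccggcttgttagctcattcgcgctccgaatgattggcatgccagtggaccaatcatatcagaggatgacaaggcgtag
A promoter of this length was at hand for 26 of the 35 members, 12 of them cytosolic. The element was present in 3 of these, Aars, Gars and Tars, against 3.45% of 32851 promoters. It lay 112 to 105 bases before the start in Aars, 30 to 23 in Gars and 15 to 8 in Tars. The 3 shown members that rose had no match in this window.

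The somatodendritic arrays of a group correlated at 0.994 or more with each other, and the axonal arrays at 0.744 to 0.902. As background, the 95th percentile of 149 probe sets of genes usually silent in neural tissue, such as olfactory receptors, was taken from each array. Between 55.1% and 59.4% of genes lay above it on the somatodendritic arrays, 27.3% to 37.0% on the axonal knockdown arrays, 36.9% to 47.3% on the axonal empty vector arrays and 49.1% to 52.5% on the axonal wild-type arrays. The probe set naming Smn1 alone was above background on 1 of 18 arrays, an axonal empty vector array. These values therefore do not check the knockdown. Of 15 motoneuron markers, 7 were above background on every somatodendritic array, the neurofilament genes Nefl, Nefm and Nefh with Tubb3, Prph, Ret and Foxp1. Another 5 were above background on 0 of 18 arrays, the cholinergic genes Chat, Slc18a3 and Slc5a7 and the transcription factor genes Mnx1 and Lhx4. The transcription factor genes Isl1, Isl2 and Lhx3 were above background on all 3 arrays of no group. Fewer cells of a type and less RNA per cell cannot be told apart in such samples. The labels do not state whether arrays of 1 group stem from separate cultures, and p-values measure the spread between arrays, which may be technical.

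Synthetase messages were measured well in cell bodies. On each somatodendritic array 27 to 29 of the 35 members were above background, and 16 cytosolic and 11 mitochondrial members were above it on all 3 arrays of every somatodendritic group. The spread within a group was small, with a median SD over members of 0.08 log2 units in knockdown, 0.11 in empty vector and 0.12 in wild-type arrays. In axons, 13 to 24 members were above background on the knockdown arrays, against 19 to 28 on the empty vector and 26 to 28 on the wild-type arrays. The median SD was 0.73 in knockdown, 0.68 in empty vector and 0.42 in wild-type axons, so that only large differences could be resolved there.

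In knockdown cell bodies, some synthetases differed from the empty vector, in both directions. Compared with the empty vector, 9 of 35 members passed the test (25.7%), against 28% of all genes (limma with Benjamini-Hochberg adjustment over 18191 genes, threshold 0.05). The share of members was thus close to that of all genes. Rars, Yars, Sars, Mars1, Fars2 and Tars2 were higher, and Gars, Lars2 and Rars2 were lower. Of all genes, 2267 were higher and 2821 lower. By location, 4 of 19 cytosolic members rose and 1 fell, and 2 of 16 mitochondrial members rose and 2 fell. The median log2 difference was -0.06 for the cytosolic members, -0.04 for the mitochondrial members and -0.02 for all genes. The arrays of knockdown and empty vector did not overlap for 14 of 35 members (40%), against 43.3% of all genes.

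**Figure D1:**
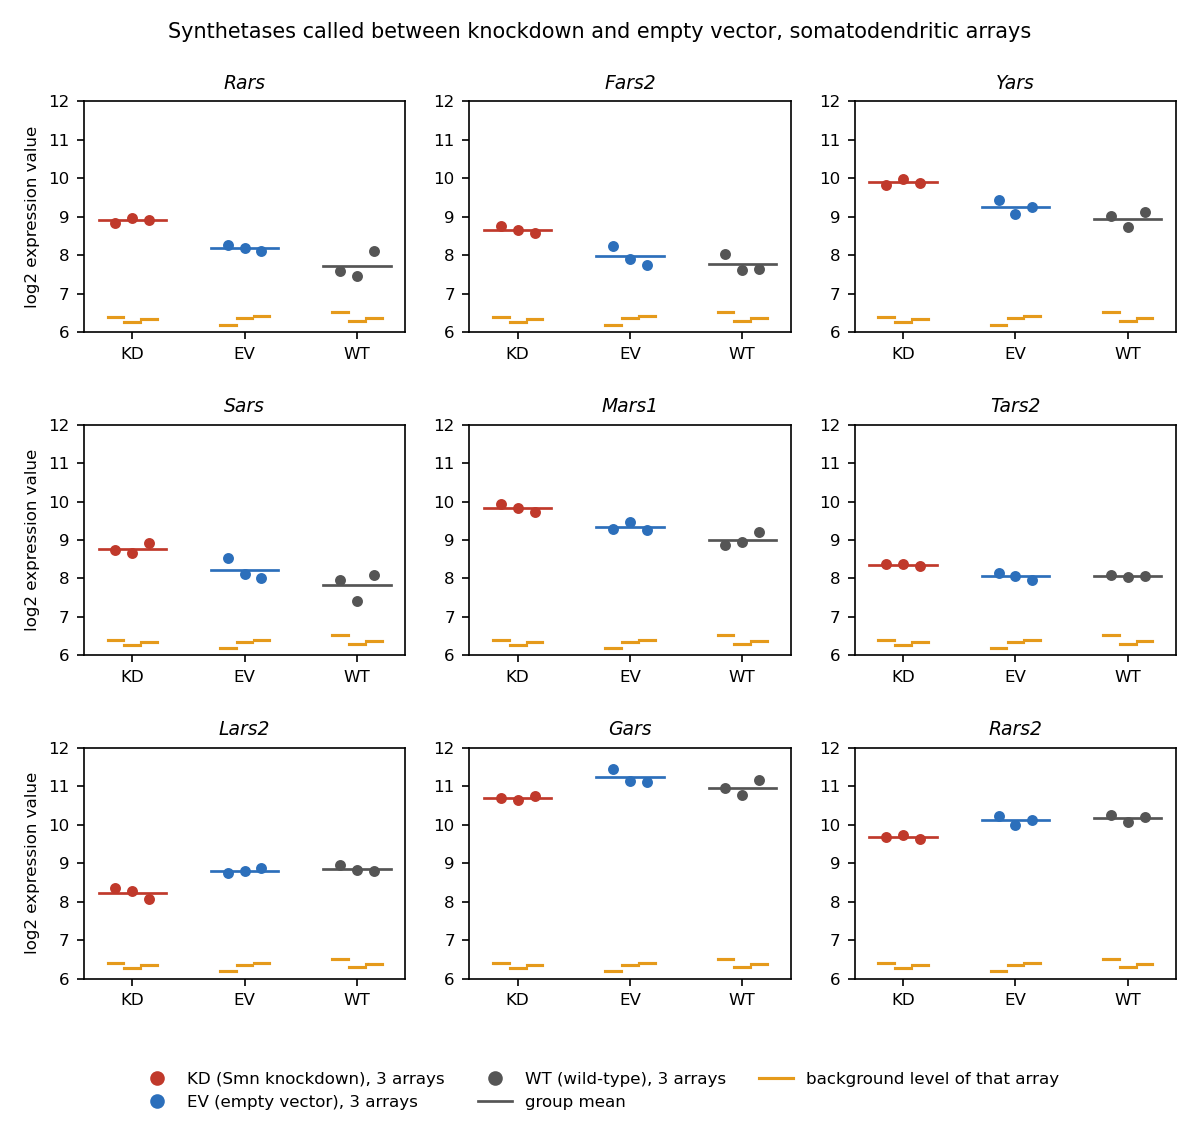
Log2 expression values on the somatodendritic arrays for the 9 synthetases that passed the test between knockdown and empty vector, in knockdown (KD), empty vector (EV) and wild-type (WT) cells. Points are arrays, long bars group means and short orange bars the background level of each array. In each panel the 3 knockdown arrays lie on one side of the 3 empty vector arrays, above them in 6 panels and below them in 3.

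Rars, the arginine enzyme of the multi-synthetase complex, had 8.84, 8.98 and 8.91 log2 units on the knockdown arrays, against 8.25, 8.19 and 8.10 on the empty vector arrays and 7.58, 7.45 and 8.10 on the wild-type arrays. The knockdown arrays lay above all 6 control arrays. The difference from the empty vector was 0.73 ± 0.14 log2 units (SE; 1.65-fold, limma adjusted p = 0.00195), and that from wild-type was 1.20 ± 0.14 (2.29-fold, limma adjusted p = 3.84e-05). Mars1, the methionine enzyme of the same complex, had 9.93, 9.83 and 9.73 on the knockdown arrays, against 9.28, 9.46 and 9.25 with the empty vector and 8.86, 8.94 and 9.20 in wild-type cells. Again no control array reached the knockdown arrays. Mars1 was higher by 0.50 ± 0.11 than with the empty vector (1.41-fold, limma adjusted p = 0.0038) and by 0.83 ± 0.11 than in wild-type cells (1.78-fold, limma adjusted p = 7.87e-05).

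Yars, the tyrosine enzyme, is mutated in a dominant intermediate neuropathy in people. It had 9.82, 9.98 and 9.88 on the knockdown arrays, against 9.43, 9.07 and 9.26 on the empty vector arrays and 9.01, 8.73 and 9.11 on the wild-type arrays, with no overlap. The rise was 0.64 ± 0.12 over the empty vector (1.56-fold, limma adjusted p = 0.00147) and 0.95 ± 0.12 over wild-type (1.93-fold, limma adjusted p = 6.57e-05). Sars charges serine tRNA and also, in a step before selenocysteine synthesis, the selenocysteine tRNA. Its values were 8.74, 8.67 and 8.91 with knockdown, against 8.53, 8.11 and 8.02 with the empty vector and 7.97, 7.41 and 8.09 in wild-type cells. The knockdown arrays were highest, with a small gap to the highest empty vector array. The difference was 0.55 ± 0.17 over the empty vector (limma adjusted p = 0.0312) and 0.96 ± 0.17 over wild-type (limma adjusted p = 0.00095). The call against the empty vector was lost when any array other than the empty vector array with 8.53 was left out (limma adjusted p 0.0575 to 0.117 in those 5 fits), while all 6 fits that left out an array kept the call against wild-type. The other Sars probe set gave a smaller rise over the empty vector, 0.36 ± 0.12, and did not pass (limma adjusted p = 0.0537 over all probe sets).

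Among the mitochondrial enzymes, Fars2, which charges phenylalanine, had 8.75, 8.66 and 8.58 on the knockdown arrays, against 8.24, 7.91 and 7.75 with the empty vector and 8.04, 7.60 and 7.65 in wild-type cells. The groups did not overlap. Fars2 was higher by 0.70 ± 0.14 than with the empty vector (limma adjusted p = 0.00258) and by 0.90 ± 0.14 than in wild-type cells (limma adjusted p = 0.000309). Tars2, the threonine enzyme, had 8.37, 8.37 and 8.31 with knockdown, against 8.14, 8.07 and 7.96 with the empty vector and 8.08, 8.04 and 8.06 in wild-type cells. Its rise over the empty vector was small, 0.30 ± 0.08 (limma adjusted p = 0.0149), and the call was lost in 3 of 6 fits that left out an array (limma adjusted p 0.0511 to 0.0687, without the empty vector array at 7.96 or either knockdown array at 8.37). The other Tars2 probe set gave a larger rise, 0.52 ± 0.09 (limma adjusted p = 0.000886 over all probe sets).

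Gars, the glycine enzyme and the best known of the motor neuropathy synthetases, fell. It had 10.70, 10.65 and 10.75 on the knockdown arrays, against 11.45, 11.13 and 11.12 on the empty vector arrays and 10.95, 10.78 and 11.16 on the wild-type arrays. The knockdown arrays were the lowest of the 9, with almost no gap to the lowest wild-type array. The difference from the empty vector was -0.53 ± 0.12 (limma adjusted p = 0.0048). Against wild-type it was -0.26 ± 0.12 and did not pass (limma adjusted p = 0.104), since the empty vector itself lay 0.27 ± 0.12 above wild-type (limma adjusted p = 0.265).

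The leucine enzyme of mitochondria, Lars2, had 8.35, 8.29 and 8.06 with knockdown, against 8.74, 8.79 and 8.87 with the empty vector and 8.97, 8.82 and 8.80 in wild-type cells. Every knockdown array was below every control array, and the fall was -0.57 ± 0.10 against the empty vector (limma adjusted p = 0.000767) and -0.63 ± 0.10 against wild-type (limma adjusted p = 0.000269). Rars2, the mitochondrial arginine enzyme, is a gene of pontocerebellar hypoplasia in people. It had 9.67, 9.73 and 9.62 with knockdown, against 10.23, 9.99 and 10.13 with the empty vector and 10.26, 10.08 and 10.20 in wild-type cells, again with no overlap. It was lower by 0.45 ± 0.09 than with the empty vector (limma adjusted p = 0.00277) and by 0.51 ± 0.09 than in wild-type cells (limma adjusted p = 0.000863). The cytosolic and mitochondrial enzymes of arginine were thus called in opposite directions.

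Of the 7 synthetases with human motor neuropathy genes, Yars and Mars1 rose and Gars fell, while Aars, Hars, Kars and Wars did not pass against the empty vector. That is 3 of 7 (42.9%), against 28% of all genes. Aars, the alanine enzyme, had 11.22, 11.28 and 10.99 on the knockdown arrays, against 11.26, 11.23 and 11.33 on the empty vector arrays and 11.03, 10.93 and 11.13 on the wild-type arrays (-0.11 against the empty vector, limma adjusted p = 0.459). Its other probe set had 8.76, 8.97 and 8.66 with knockdown, against 8.32, 8.39 and 8.36 with the empty vector, without overlap. That set gave 0.44 ± 0.18 and did not pass either (limma adjusted p = 0.108 over all probe sets). Hars, the histidine enzyme, had 11.23, 11.32 and 11.21, against 11.39, 11.35 and 11.33 with the empty vector and 11.37, 11.61 and 11.54 in wild-type cells. Its knockdown arrays were the lowest, by little, and the difference of -0.25 ± 0.09 from wild-type passed (limma adjusted p = 0.0362) while that of -0.10 from the empty vector did not (limma adjusted p = 0.436). The call against wild-type was lost in 5 of 6 fits that left out an array (all but that without the wild-type array at 11.37, limma adjusted p 0.0516 to 0.12), and the mean of both Hars probe sets gave 0.12. Kars, the lysine enzyme, overlapped with the empty vector, with 9.32, 9.41 and 9.36 on the knockdown arrays, against 9.58, 9.37 and 9.44 on the empty vector arrays and 8.94, 8.85 and 9.41 on the wild-type arrays (-0.10 against the empty vector, limma adjusted p = 0.621).

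Wars, the tryptophan enzyme, is known as an interferon-induced synthetase in people. It had 8.42, 8.52 and 8.51 with knockdown, against 8.91, 8.40 and 8.61 with the empty vector and 8.66, 8.37 and 8.39 in wild-type cells, and the 3 groups overlapped (-0.16 ± 0.13 against the empty vector, limma adjusted p = 0.411). On the same arrays 21 of 21 interferon-induced genes rose in knockdown cells, with a median difference of 2.98. Its 2 other probe sets above background differed by -0.26 and -0.16 between knockdown and empty vector, and none of the 4 Wars probe sets passed.

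Against wild-type, 10 of 35 members passed (28.6%), against 36% of all genes, 6 higher (15.6% of all genes were higher) and 4 lower (20.4% of all genes were lower). The 6 were the members already named as higher than with the empty vector, and these comparisons share the knockdown arrays. Lars2, Rars2, Yars2 and Hars were lower. Yars2, the mitochondrial tyrosine enzyme, had 8.61, 8.53 and 8.61 on the knockdown arrays, against 8.61, 8.85 and 8.82 with the empty vector and 9.03, 9.05 and 8.89 in wild-type cells (-0.41 ± 0.09 against wild-type, limma adjusted p = 0.00382). Its other probe set gave -0.21 against wild-type and did not pass (limma adjusted p = 0.132 in the fit without probe sets that may read several genes). Between empty vector and wild-type, 0 of 35 members passed limma's test, against 2% of all genes, and 9 had an unadjusted p under 0.05 (17.3% of all genes did). The 3 with the lowest p were Rars (0.47 ± 0.14, limma adjusted p = 0.116), Mars1 (0.33 ± 0.11, limma adjusted p = 0.146) and Kars (0.40 ± 0.13, limma adjusted p = 0.147), all higher with the empty vector.

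The count of members depends on the probe set. Each of the 72 probe sets of the family was therefore tested, a choice made after seeing the data, and 17 passed between knockdown and empty vector (23.6%), against 24.4% of all 34934 probe sets. Of these, 14 were higher and 3 lower, and they named 14 members, 11 higher and 3 lower. The 5 added members, Eprs, Hars, Farsa, Hars2 and Iars2, were all higher by a probe set with a lower mean over the arrays than the set standing for the gene. For Eprs, the glutamate and proline enzyme of the complex, the probe set that stood for the gene averaged 11.59 ± 0.04 on the knockdown arrays and 11.65 ± 0.13 on the empty vector arrays (SD, n = 3 each). A further set averaged 9.65 ± 0.07 with knockdown and 8.65 ± 0.33 with the empty vector, and another 8.96 ± 0.20 with knockdown and 7.77 ± 0.36 with the empty vector. These were thus higher by 1.00 ± 0.15 and 1.19 ± 0.17 (limma adjusted p = 0.00047 and 0.000308 over all probe sets), more than any probe set that stood for a member. For Hars, the set that stood for the gene averaged 11.25 ± 0.06 with knockdown and 11.36 ± 0.03 with the empty vector, while the other averaged 9.09 ± 0.06 with knockdown and 8.56 ± 0.18 with the empty vector (0.52 ± 0.10, limma adjusted p = 0.00219). A set counted as above background if it was so on all 3 knockdown or all 3 empty vector arrays. Of 15 members with several such sets, 5 (Aars, Eprs, Farsa, Hars and Hars2) had sets whose differences lay more than 0.5 log2 units apart. Farsa entered through the knockdown arrays alone. Its second set was above background on 3 of 3 of these but on 1 of 3 empty vector arrays, so its difference rests on values near background. Which parts of the transcripts these sets read was not analysed here.

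**Figure D2:**
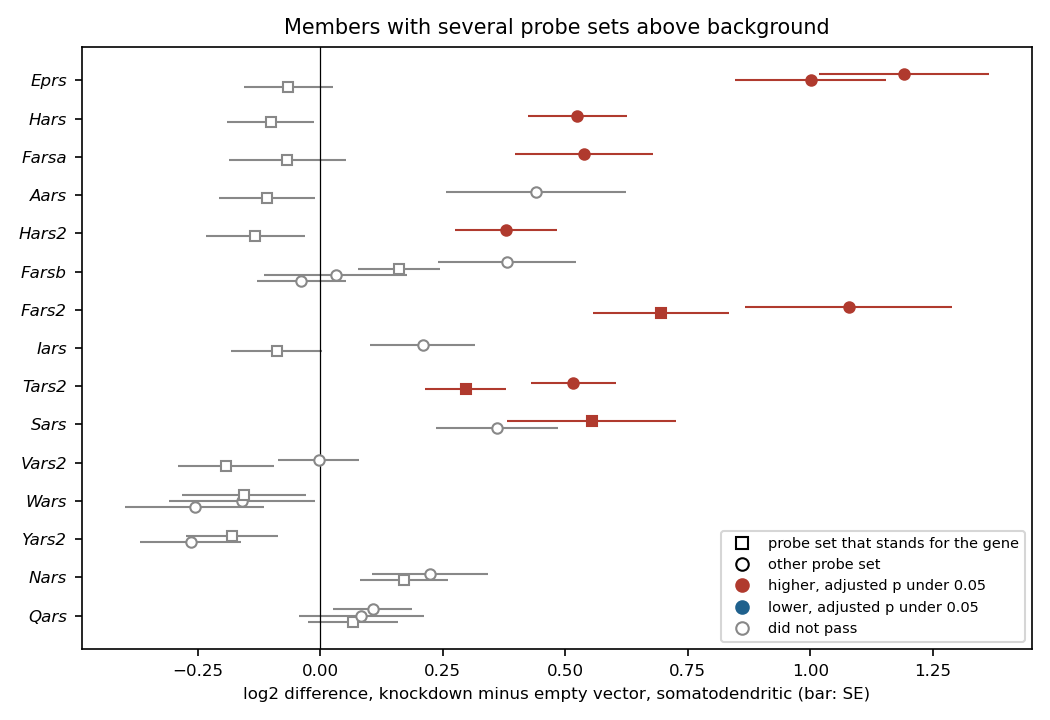
Log2 difference between knockdown and empty vector on the somatodendritic arrays for each probe set above background of the 15 members with several such sets, with its standard error, sorted by how far the sets lie apart. A set is shown if it was above background on all 3 arrays of either group, for the Farsa circle the knockdown group alone. Squares stand for the gene and circles are the other sets, filled where the set passed the test over all probe sets. For Eprs, Hars, Farsa and Hars2 the square lies near 0 and a circle lies to the right of it.

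The proteins that hold the complex or work on tRNA before and after charging gave a mixed picture. Aimp1, the scaffold that binds Rars and Qars in the complex, had 10.17, 10.08 and 9.84 on the knockdown arrays, against 9.21, 9.08 and 9.08 with the empty vector and 8.73, 8.42 and 8.88 in wild-type cells. It was higher in knockdown cells without overlap, by 0.91 ± 0.12 against the empty vector (limma adjusted p = 0.000179), and was the 1 of 6 scaffold and accessory genes that passed (16.7%), against 28% of all genes. Within the complex itself, 2 of 7 members measured, Rars and Mars1, passed, both higher (28.6%, close to all genes). Among 15 genes of tRNA maturation and export, 2 rose and 4 fell (40%, against 28% of all genes), with a median of -0.24. Of the 4 named, Tsen15, a subunit of the tRNA splicing endonuclease, differed by -0.71, its partner Tsen34 by 0.31, the tRNA exportin Xpot by -0.33, and Clp1, an RNA kinase linked to pontocerebellar hypoplasia, by -0.42 (limma adjusted p 0.000102 to 0.0177).

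Of 29 genes of tRNA modification, 5 rose and 2 fell (24.1%, against 28% of all genes). The tRNA methyltransferase subunit Trmt61a was higher by 0.61, Osgep, which makes a modified adenosine next to the anticodon, by 0.59, and the wobble methyltransferase Alkbh8 by 0.75, while the Elongator subunit Elp4 was lower (-0.55; limma adjusted p 0.000407 to 0.00288). Of 8 genes of indirect charging in mitochondria and selenocysteine synthesis, 1 passed, a smaller share than of all genes, Gatb, a subunit of the mitochondrial amidotransferase (0.38, limma adjusted p = 0.019). Of 31 genes of the amino acid response, 8 rose and 4 fell (38.7% called, against 28% of all genes), with a median of 0.14. Atf3 (1.13) and Ddit3 (1.07), stress-induced partners of ATF4, and the stress-induced sestrin gene Sesn2 (0.43) rose and Gpt2, an alanine aminotransferase, fell (-0.48; limma adjusted p 0.00034 to 0.00178). Atf4 itself averaged 10.30 on the knockdown arrays and 10.19 on the empty vector arrays and did not pass (0.11, limma adjusted p = 0.64), and neither did the asparagine synthetase gene Asns (0.27, limma adjusted p = 0.0591).

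Markers of other cell types differed between the same arrays. Of 16 genes of microglia and macrophages 15 rose, with 13 above background on all knockdown arrays, 5 on all empty vector arrays and 13 on all wild-type arrays. The level averaged over the list was 8.10 to 8.42 on the knockdown arrays, against 5.99 to 6.30 on the empty vector arrays and 7.76 to 7.85 on the wild-type arrays. Of 12 genes of cycling cells 11 fell (7.32 to 7.67 with knockdown, against 8.50 to 8.83 on empty vector arrays and 8.65 to 9.03 on wild-type arrays), as did 8 of 12 of astrocytes and radial glia and 5 of 9 of the oligodendrocyte lineage. As a sign of RNA quality, the log2 difference between the 3′ and 5′ control probe sets of Gapdh was 3.99, 4.12 and 4.01 on the knockdown arrays, against 3.68, 3.53 and 3.60 with the empty vector and 3.48, 3.11 and 3.61 in wild-type cells, higher on every knockdown array than on every control array. The part of these cell types and of RNA quality in the synthetase values was not tested. The titles number knockdown arrays by another scheme than all control arrays, and handling and knockdown cannot be told apart. Under 1 fit to all 18 arrays, in which the axonal spread enters, 0 of 35 members passed in either knockdown comparison of cell bodies, against 0.566% of all genes (empty vector) and 0.792% (wild-type).

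**Figure D3:**
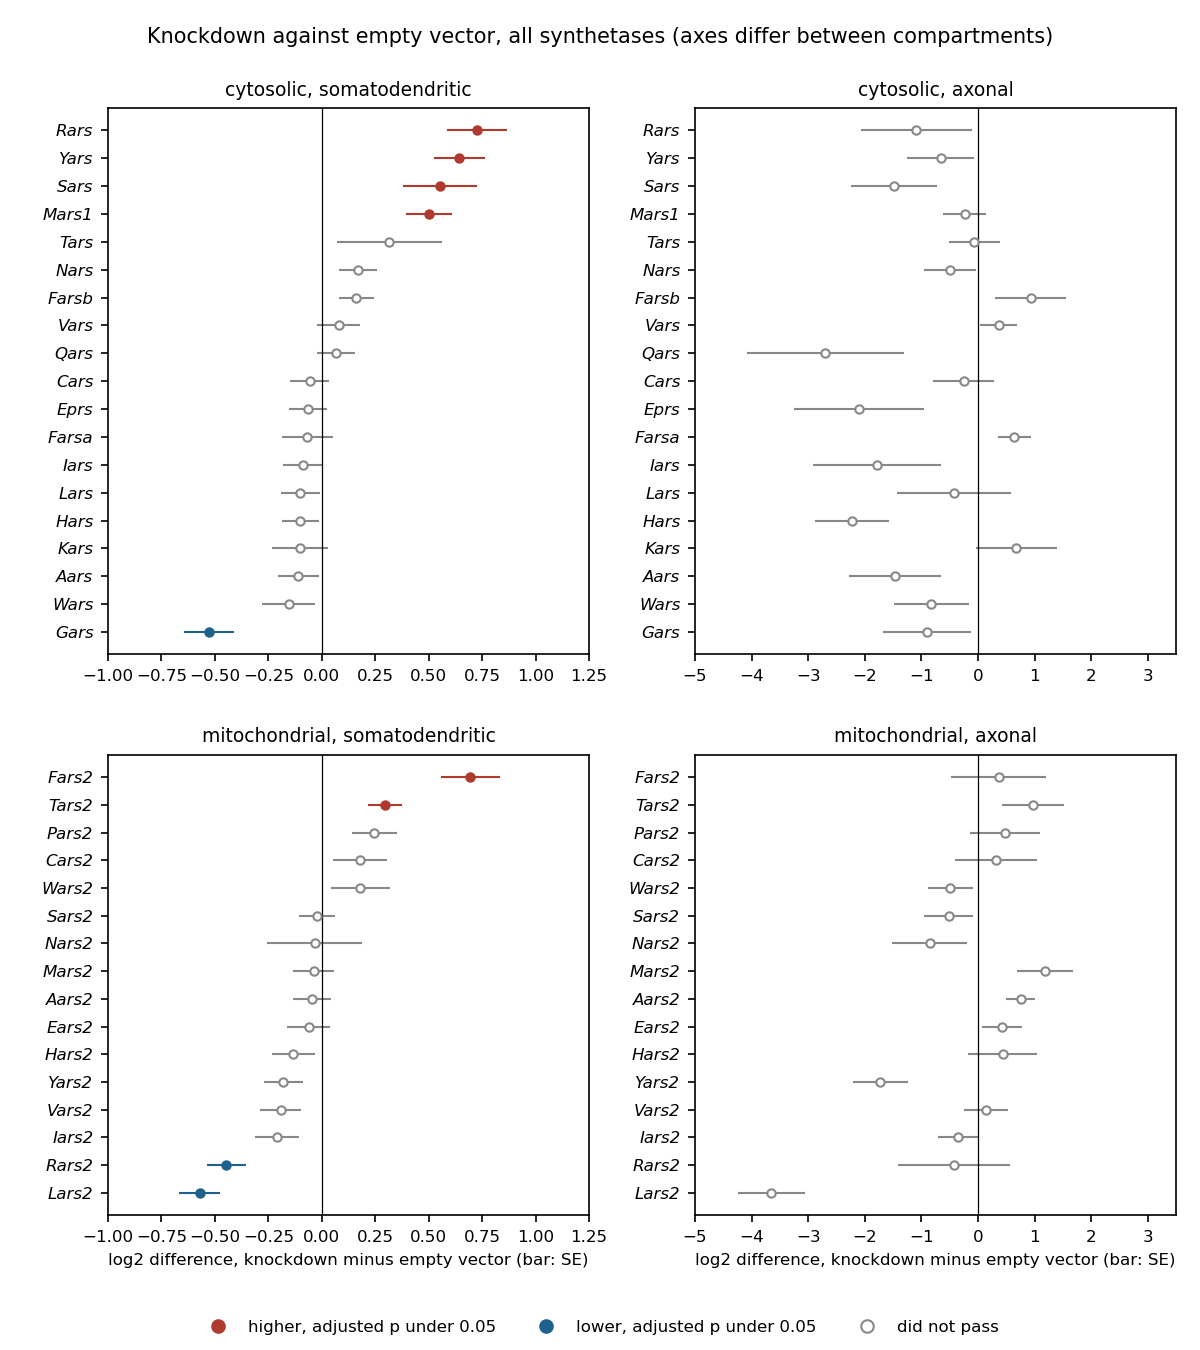
Log2 difference between knockdown and empty vector for each cytosolic (top) and mitochondrial (bottom) synthetase, with its standard error, on the somatodendritic arrays (left) and the axonal arrays (right), in the order of the somatodendritic difference. Filled points passed the test. The axonal axis is wider, and no axonal point is filled, although Lars2 lies at -3.65.

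In axons, 0 of 35 members passed limma's test between knockdown and empty vector, against 0.176% of all genes, and 5 had an unadjusted p under 0.05 (14.3%), against 18.2% of all genes. Most cytosolic values were lower with knockdown and most mitochondrial ones were not. The difference was below 0 for 15 of 19 cytosolic members, with a median of -0.66, and for 7 of 16 mitochondrial members, with a median of 0.23. Of all 18191 genes, 8462 had a difference below 0, with a median of 0.06. For the 7 complex members it was below 0 for 6, with a median of -1.09. Only 9 cytosolic and 2 mitochondrial members were above background on all 3 knockdown arrays. The mitochondrial mean was 6.69, 6.95 and 7.14 on these arrays, below their background levels of 7.65, 7.36 and 7.17. The part of background in these differences was not tested. The cytosolic mean on each array was 7.56, 9.29 and 8.60 with knockdown, against 9.54, 8.51 and 9.60 with the empty vector and 9.42, 8.97 and 9.22 in wild-type axons. These ranges overlapped, and the knockdown array with 7.56 and the empty vector array with 8.51 are also the ones with the fewest genes above background in their groups (27.3% and 36.9%). Of 15 motoneuron markers, 8 had a difference above 0 and 7 below it, with a median of 0.08, and 0 passed limma's test (2 had an unadjusted p under 0.05). Their averaged level was 6.29 to 6.77 in knockdown axons, against 6.71 to 6.92 in empty vector axons and 6.51 to 6.95 in wild-type axons. Of the 15, 11 were above background on no knockdown axon array and 7 on no empty vector axon array, so many of these differences lie at background. Within the list, the neurofilament gene Nefm averaged 5.54 ± 1.51 in knockdown axons, below background on all 3 arrays, against 9.11 ± 0.42 with the empty vector, while the peripherin gene Prph averaged 8.97 ± 0.58 and 8.01 ± 0.80 in the same groups (SD, n = 3 each). With knockdown and empty vector in turn, Nefl averaged 10.70 and 11.85, Nefh 5.85 and 7.30, and Ret 4.31 and 6.60. Foxp1 averaged 8.16 and 7.63, and Tubb3 8.89 and 8.50. The microglial level was 6.82 to 9.31 in knockdown axons, against 5.97 to 6.27 in empty vector axons and 7.00 to 9.92 in wild-type axons. The part of array quality and of either cell type in the synthetase values was not tested.

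The 3 members with the lowest p were Lars2, Yars2 and Hars, and these did not reach the threshold. Lars2 had 4.26, 5.17 and 6.54 on the axonal knockdown arrays, against 9.03, 9.68 and 8.20 with the empty vector and 8.44, 8.0 and 7.90 in wild-type axons. It was below background on every knockdown array and above it on all 6 control arrays, and every control array lay far above every knockdown array. The difference from the empty vector was -3.65 ± 0.59 (at least 2.98-fold lower, limma adjusted p = 0.0608). From wild-type it was -2.79 ± 0.59 (at least 1.65-fold lower, limma adjusted p = 0.0663). Bounds are used because a value at background has no level of its own. With genes above background on fewer than 3 of the 9 axonal arrays left out, fewer genes were tested and Lars2 passed against the empty vector (limma adjusted p = 0.0473).

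Yars2 had 5.96, 6.00 and 5.13 on the knockdown arrays, against 7.82, 6.77 and 7.66 with the empty vector and 6.79, 8.35 and 7.14 in wild-type axons. No knockdown array was above background or reached a control array. The bounds were at least 1.02-fold lower than with the empty vector (limma adjusted p = 0.129) and at least 1.03-fold lower than in wild-type axons (limma adjusted p = 0.104), so that nearly all of the fitted differences of -1.72 and -1.74 lay below the background of the knockdown arrays. Hars had 9.52, 10.01 and 7.81 on the knockdown arrays, against 11.94, 10.22 and 11.85 with the empty vector and 10.30, 11.11 and 10.95 in wild-type axons, a narrow gap with no overlap (-2.22 ± 0.66 against the empty vector, limma adjusted p = 0.139). Against wild-type, 0 of 35 members passed limma's test, against 0.099% of all genes, and 6 had an unadjusted p under 0.05 (20.9% of all genes did). Lars2 and Yars2 again had the lowest p there, followed by Tars2, with 9.50, 9.86 and 9.86 on the knockdown arrays, against 8.76, 9.89 and 7.65 with the empty vector and 7.43, 8.41 and 7.73 in wild-type axons (1.88 ± 0.54 against wild-type, limma adjusted p = 0.108).

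The other neuropathy synthetases varied widely between axonal arrays. Gars had 8.35, 9.41 and 9.23 with knockdown, against 10.97, 7.86 and 10.86 with the empty vector and 10.71, 10.02 and 10.08 in wild-type axons. The knockdown arrays lay below all wild-type arrays, and 1 empty vector array lay below all others (-0.90 ± 0.78 against the empty vector, limma adjusted p = 0.588). Yars had 7.89, 9.81 and 7.68 with knockdown, against 8.77, 8.93 and 9.66 with the empty vector and 9.85, 8.75 and 9.23 in wild-type axons, so 1 knockdown array lay among the highest. Aars had 10.23, 11.69 and 8.55 with knockdown, against 12.34, 10.49 and 12.03 with the empty vector and 11.62, 10.69 and 11.99 in wild-type axons, again with overlap. Mars1 was the closest of the 7 to its controls, with 9.42, 10.01 and 8.90 with knockdown, against 9.52, 9.86 and 9.64 with the empty vector and 10.003, 9.61 and 8.97 in wild-type axons (-0.23 ± 0.38 against the empty vector, limma adjusted p = 0.792). Kars had 7.89, 8.98 and 9.29 with knockdown, against 9.19, 6.31 and 8.62 with the empty vector and 8.31, 8.93 and 8.60 in wild-type axons. Wars had 8.29, 6.53 and 7.06 with knockdown, against 8.71, 6.64 and 8.99 with the empty vector and 8.09, 8.69 and 8.40 in wild-type axons. The second empty vector array was the lowest of its group for both. The probe set choice matters for Wars in axons: another of its sets averaged 9.28 ± 0.06 with knockdown and 7.70 ± 0.49 with the empty vector (SD, n = 3 each), higher by 1.58 without overlap, where the set that stood for the gene gave -0.82. This set was not tested in axons, and it was noticed after the values were seen.

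Of the other tRNA genes in axons, 1 passed between knockdown and empty vector, Ctu2, a subunit of the enzyme that thiolates the wobble uridine. It had 6.79, 7.17 and 6.59 on the knockdown arrays, against 10.84, 11.03 and 10.92 with the empty vector and 11.30, 10.39 and 10.73 in wild-type axons. It was below background on every knockdown array and far above it on the 6 others (at least 11.6-fold lower than with the empty vector, limma adjusted p = 0.00569). In cell bodies Ctu2 averaged 10.56 with knockdown and 10.79 with the empty vector. Between empty vector and wild-type axons, 0 of 35 members passed limma's test, 0 had an unadjusted p under 0.05 (3.31% of all genes did), and 0% of all genes passed. The 3 members with the lowest p were Nars2, Rars2 and Tars2, each with a limma adjusted p of 1. Nars2, the mitochondrial asparagine enzyme, had 9.57, 6.71 and 8.75 with the empty vector, against 7.31, 6.97 and 7.27 in wild-type axons (1.16 ± 0.66). Rars2 had 10.50, 6.05 and 8.41 with the empty vector, against 10.64, 10.13 and 9.39 in wild-type axons (-1.73 ± 0.99), and Tars2 differed by 0.91 ± 0.54. The groups overlapped for each of the 3, and the empty vector arrays spread more widely than the wild-type arrays.

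**Figure D4:**
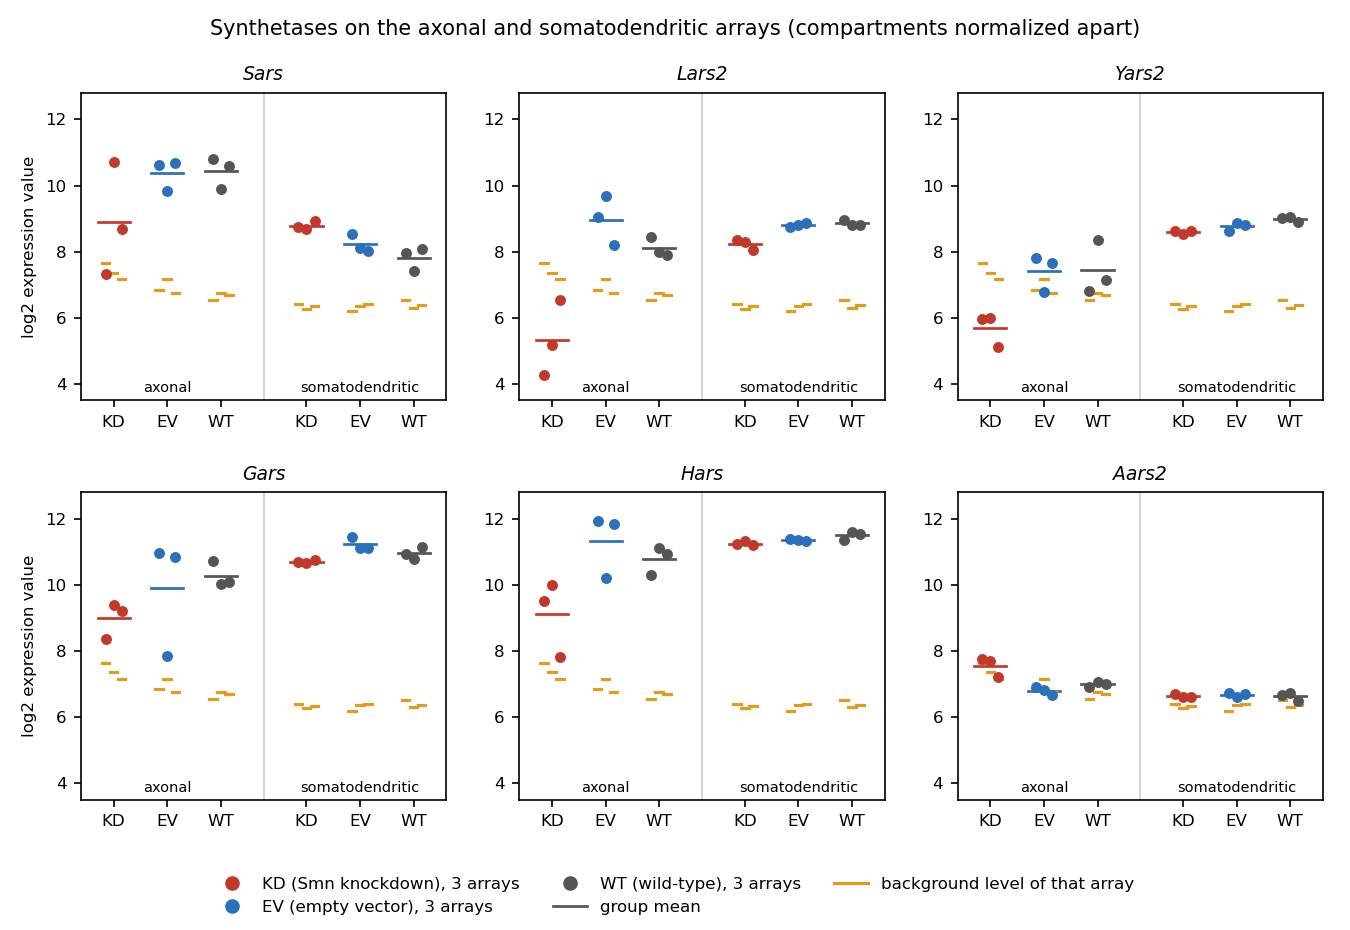
Log2 expression values of 6 synthetases on the axonal arrays (left of each panel) and the somatodendritic arrays (right), in knockdown (KD), empty vector (EV) and wild-type (WT) cells. Points are arrays, long bars group means and short orange bars each array's background level. Axonal arrays spread more than somatodendritic ones, the axonal knockdown arrays of Lars2 and Yars2 lie below their background level, and the axonal control arrays of Sars lie above its somatodendritic ones.

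Whether the knockdown difference itself differed between the compartments was tested as an interaction over all 18 arrays. It passed for 2 of 35 members (5.71%), against 6.77% of all genes. This fit, also used between the compartments, takes 1 variance per gene for both. The median SD over members was 0.08 to 0.12 in cell bodies and 0.42 to 0.73 in axons, so that p-values here rest on unequal spreads. In the axonal fit alone Lars2 did not reach the threshold. For Lars2 the difference from the empty vector was -3.65 in axons and -0.57 in cell bodies, an interaction of -3.08 ± 0.63 (limma adjusted p = 0.0137). This value rests on axonal knockdown arrays below background. With Lars2 set to the background level of those arrays, the difference between compartments was -1.01, which was not tested. For Aars2, the mitochondrial alanine enzyme, it was 0.76 in axons and -0.05 in cell bodies, an interaction of 0.80 ± 0.23 (limma adjusted p = 0.0483). Aars2 had 7.76, 7.70 and 7.23 on the axonal knockdown arrays, against 6.92, 6.84 and 6.67 on the axonal empty vector arrays and 6.90, 7.07 and 6.99 on the axonal wild-type arrays. The background level of the same arrays was 7.65, 7.36 and 7.17 with knockdown, against 6.84, 7.16 and 6.76 with the empty vector and 6.55, 6.75 and 6.70 in wild-type axons, so that Aars2 and the background were both highest on the knockdown arrays. The part of background in this call was not tested, and it was lost in 10 of 12 fits that left out an array (all but those without the second empty vector or the third knockdown axon array). Sars, higher in knockdown cell bodies, had 7.32, 10.70 and 8.67 in knockdown axons, against 10.63, 9.84 and 10.68 with the empty vector and 10.80, 9.89 and 10.60 in wild-type axons (-1.49 ± 0.76 against the empty vector, limma adjusted p = 0.345).

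Between compartments, 12 of 35 members passed when the mean of the wild-type and empty vector axons was compared with that of the corresponding cell bodies (34.3%), against 61.6% of all genes. Sars, Ears2, Farsa and Vars were higher in axons, and Fars2, Nars2, Yars2, Hars2, Gars, Nars, Kars and Farsb were lower. That is 4 higher and 8 lower, against 35.7% of all genes higher and 25.9% lower. The authors normalized the compartments separately, so that these are differences between values on scales set apart. The median of all genes was 0.18, that of the cytosolic members -0.30 and that of the mitochondrial members 0.06. After quantile normalization over all 18 arrays, 9 members were higher and 1 lower (22.3% and 11.6% of all genes), the median of all genes was 0.20, and the cytosolic median was 0.36. The direction of the cytosolic median therefore turned with the scaling. When each probe set was tested, 35 of the 72 passed (48.6%), against 61.1% of all probe sets.

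The axonal excess of Sars held under both scalings. Sars had 10.63, 9.84 and 10.68 in empty vector axons and 10.80, 9.89 and 10.60 in wild-type axons, against 8.53, 8.11 and 8.02 in empty vector cell bodies and 7.97, 7.41 and 8.09 in wild-type cell bodies. Every axonal control array was higher than every somatodendritic control array. The difference was 2.39 ± 0.41 (5.23-fold, limma adjusted p = 0.000441), and 3.10 after quantile normalization over all arrays (limma adjusted p = 0.000118). The second probe set of Sars gave 1.40 ± 0.39 (limma adjusted p = 0.00747). Farsa, the alpha subunit of the cytosolic phenylalanine enzyme, was higher by 0.55 ± 0.15 (limma adjusted p = 0.00633) and Vars, the valine enzyme, by 0.51 ± 0.16 (limma adjusted p = 0.0159). Farsa had 8.06, 8.22 and 7.56 in empty vector axons and 8.10, 7.65 and 7.69 in wild-type axons, against 7.11, 7.42 and 7.40 in empty vector cell bodies and 7.46, 7.43 and 7.17 in wild-type cell bodies. Vars had 6.63, 6.69 and 7.21 in empty vector axons and 6.59, 6.86 and 7.20 in wild-type axons, against 6.40, 6.44 and 6.39 in empty vector cell bodies and 6.24, 6.47 and 6.19 in wild-type cell bodies. Both separated the compartments without overlap, Vars close to background (above it on 4 of 6 axonal and 3 of 6 cell body arrays). The background level itself averaged 6.79 on the axonal control arrays, against 6.36 on the cell body control arrays, also without overlap (difference 0.43), and its part in these calls was not tested. The beta subunit Farsb was lower in axons (-0.81 ± 0.33, limma adjusted p = 0.0451), so that the subunits of this enzyme were called in opposite directions with the values as deposited. Other Farsb probe sets gave -1.64, -1.30 and -0.34 (limma adjusted p = 0.000235, 0.00365 and 0.358 over all probe sets). Ears2, the mitochondrial glutamate enzyme, was above background on 1 of 12 of these arrays and called higher (limma adjusted p = 0.000751). No fold is given, because its axonal mean lay below the background of those arrays. Its 3 other probe sets gave 0.07, 0.05 and 0.66. It had 6.34, 7.55 and 6.34 in empty vector axons and 6.38, 6.34 and 6.45 in wild-type axons, against 5.59, 5.58 and 5.70 in empty vector cell bodies and 5.65, 5.58 and 5.63 in wild-type cell bodies.

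The lowest mitochondrial members were the phenylalanine, asparagine, tyrosine and histidine enzymes. Yars2 had 7.82, 6.77 and 7.66 in empty vector axons and 6.79, 8.35 and 7.14 in wild-type axons, against 8.61, 8.85 and 8.82 in empty vector cell bodies and 9.03, 9.05 and 8.89 in wild-type cell bodies. No axonal array reached the lowest cell body array (-1.45 ± 0.25, limma adjusted p = 0.000464). Fars2 had 7.47, 6.08 and 5.52 in empty vector axons and 5.48, 7.16 and 5.24 in wild-type axons, against the cell body values given above (-1.71 ± 0.45, limma adjusted p = 0.00565), and was above background on 2 of these 6 axonal arrays. Hars2 had 5.63, 5.67 and 7.95 in empty vector axons and 7.28, 7.07 and 6.62 in wild-type axons, against 7.95, 8.15 and 8.08 in empty vector cell bodies and 8.18, 8.32 and 8.05 in wild-type cell bodies (-1.42 ± 0.32, limma adjusted p = 0.00233). It reached background on 3 of 6 axonal arrays, and 1 of them came level with the lowest cell body array. Nars2, whose axonal values are given above, had 9.16, 10.20 and 9.20 in empty vector cell bodies and 9.26, 9.39 and 9.15 in wild-type cell bodies (-1.63 ± 0.37, axons minus cell bodies, limma adjusted p = 0.00241), overlapped by 1 empty vector axon array at 9.57. All 4 stayed below 0 under quantile normalization over all arrays, with -0.77 for Yars2, -1.42 for Fars2, -0.99 for Hars2 and -0.88 for Nars2, and Fars2 passed there (limma adjusted p = 0.0496). With the values as deposited, the second probe sets of Yars2 and Hars2 gave -1.83 and -1.10 (limma adjusted p = 0.000409 and 0.00286 over all probe sets). Those of Fars2 and Nars2 gave -0.39 and 0.23 and did not pass (limma adjusted p = 0.401 and 0.373). The second Nars2 set thus pointed the other way.

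Among the neuropathy synthetases, Gars (-1.02 ± 0.42, limma adjusted p = 0.0476) and Kars (-0.94 ± 0.39, limma adjusted p = 0.0465) were lower in axons than in cell bodies, and the other 5 did not pass. That is 2 of 7 (28.6%), against 61.6% of all genes. The second empty vector axon array, at 7.86 for Gars and 6.31 for Kars, was the lowest of the control arrays in both, and without it the differences were -0.51 and -0.51 (-0.40 for Farsb). Among the 12 fits that left out an array, the call was lost in 8 for Gars (limma adjusted p 0.0643 to 0.0884) and in 9 each for Kars and Farsb (limma adjusted p 0.0515 to 0.0957). The differences of Gars and Kars were -0.16 and -0.07 after quantile normalization over all arrays. By the fold of the catalytic domain, 9 of 16 class II members (56.2%) and 3 of 19 class I members (15.8%) passed between the compartments, against 61.6% of all genes, and the difference between the classes was not tested. Of the other tRNA genes, 16 of 29 tRNA modification genes were lower in axons and 5 higher (72.4% called), while 7 of 15 tRNA maturation genes were lower and 2 higher (60% called), against 61.6% of all genes. Astrocytic and radial glial genes (8 of 12 lower) and cycling genes (11 of 12 lower) also differed between the compartments, and their part in the synthetase differences was not tested.

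**Figure D5:**
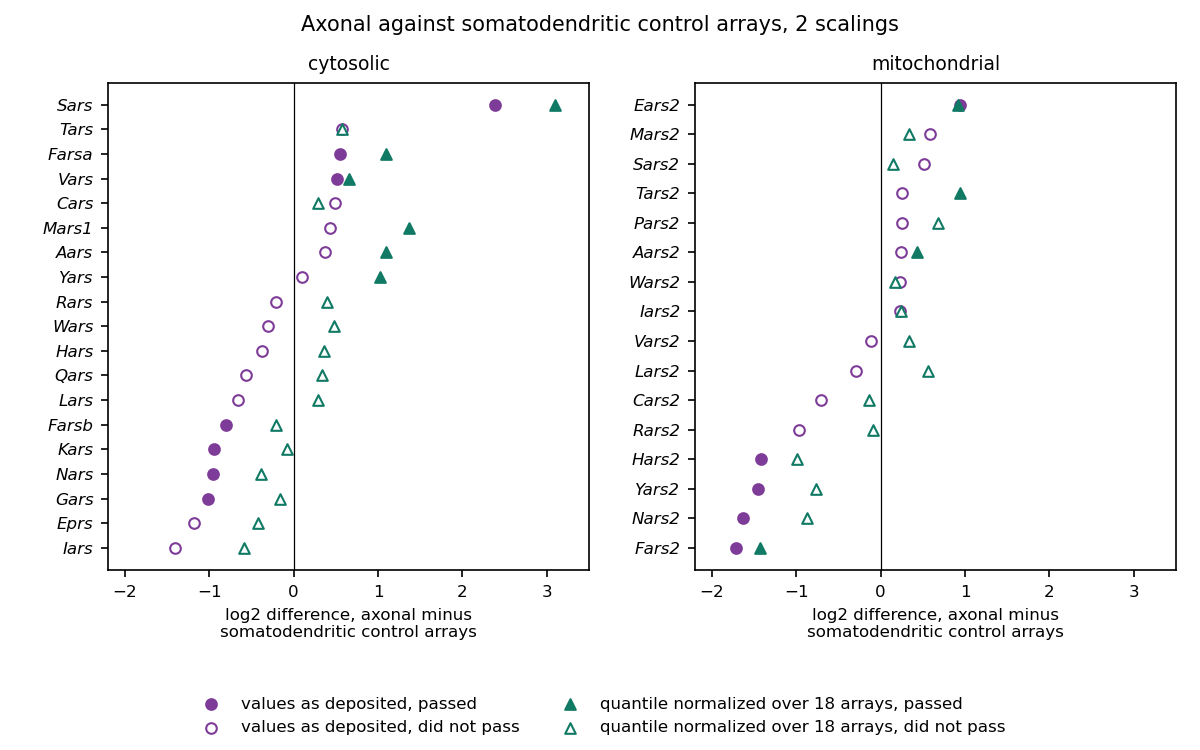
Log2 difference between axonal and somatodendritic control arrays for each cytosolic (left) and mitochondrial (right) synthetase, from the values as deposited (circles) and after quantile normalization over all 18 arrays (triangles), filled where the test was passed. Sars lies far to the right under both scalings, and the cytosolic triangles lie mostly to the right of their circles.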

How the data were processed

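Log2 expression values, as deposited by the authors, were read for 18 arrays. How they were summarised from the scans is not stated in the labels. Ranked values were equal to within 0.0048 across somatodendritic and 0.0125 across axonal arrays, so the authors had normalized each compartment on its own. The labels' protocols give 2 rounds of linear amplification, which shortens transcripts toward their 3' ends. Groups follow the labels. Of 45101 probe sets, 34945 named 1 gene in the platform annotation, 932 several and 9160 none; 64 control sets and 11 with missing values were left out, and dim sets were kept. Group differences came from limma 3.58.1 run in R 4.3.3 (lmFit, then eBayes; p-values adjusted by Benjamini-Hochberg across 18191 genes, threshold 0.05), within a compartment on its 9 arrays and between compartments on 18, with 1 mean per group. Standard errors are limma's. The small number of arrays limits the precision. A fold is a lower bound ("at least") where every array of the lower group was not above background.

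The members and the gene lists were chosen with earlier results of these data known. Values on every array are given for the 7 neuropathy synthetases, for the members called in somatodendritic knockdown against empty vector, and for up to 4 per direction elsewhere, or the 3 with the lowest p where none passed. Of other lists, up to 4 called genes with the lowest p are named. Atf4 and Asns were named after their values were seen. The alternatives were the choice of probe set, a filter on dim genes, the arrays in the fit, the normalization, moderation, array weights and left-out arrays. The labels do not state whether the title numbers pair the arrays, and the main fits treated arrays as unpaired. Of 18 correlations between arrays matched by number, 1 exceeded 0.1 (range -0.19 to 0.23). With 3 arrays per group these correlations cannot settle whether arrays were paired. Those with axonal knockdown arrays match numbers of different schemes.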

Additional observations from a re-analysis of the deposited data

Results flagged for a closer look

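The knockdown difference from the empty vector differed between axons and cell bodies for 2 synthetases by the interaction test. For Lars2, the mitochondrial leucine enzyme, the axonal difference was lower than the somatodendritic one by 3.08 log2 units (-3.08 ± 0.63, limma adjusted p = 0.0137), with 0 of 3 axonal knockdown arrays above background. With Lars2 set to the background level of those arrays, the difference was -1.01, which was not tested. The interaction fit takes 1 variance for both compartments, and in the axonal fit alone Lars2 did not reach the threshold. The interaction lay between -3.68 and -2.55 in the 12 fits that left out an array. With the mean of all 3 probe sets, of which only the set that stood for the gene was above background in cell bodies, it was -0.97 (limma adjusted p = 0.0677). For Aars2, the mitochondrial alanine enzyme, the axonal difference was higher by 0.80 (0.80 ± 0.23, limma adjusted p = 0.0483), and this call was lost in 10 of 12 fits that left out an array (limma adjusted p 0.0116 to 0.116 over the 12).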

How the results depend on the processing

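Of 742 values of named members under the alternatives, 631 kept their direction and their side of the threshold, 99 kept the direction and lost the call, 11 kept the direction and gained it, and 1 reversed: Hars in knockdown against wild-type cell bodies gave 0.12 with the mean of all probe sets. In 1 fit to all 18 arrays the counts of members called in cell bodies were 0 against the empty vector and 0 against wild-type (0.566% and 0.792% of all genes), and in axons 6 and 9 (17.1% and 25.7% of members, against 20.7% and 24.6% of all genes). With genes above background on fewer than 3 arrays left out, the axonal count against the empty vector was 1 and the interaction count 1 (68 and 858 of all genes tested). Array weights gave 1 in axonal knockdown against wild-type (897 of all genes), and leaving out probe sets that may read several genes gave 1 between empty vector and wild-type cell bodies (319 of all genes). The interaction count was 4 with the probe set of highest variance, 1 with the mean of all sets, 1 with trend and robust moderation and 9 without the first axonal knockdown and the second axonal empty vector array (1442, 1024, 1089 and 3024 of all genes). Alternatives chosen after seeing the data gave 14 members in knockdown against empty vector cell bodies and 22 between compartments when every probe set was tested (24.4% and 61.1% of all probe sets), and 6 between compartments in wild-type arrays alone (5285 of all genes). Leaving out an array gave 7 to 9 members in knockdown against empty vector cell bodies, 9 to 11 against wild-type, 0 to 3 between empty vector and wild-type (3 without the third wild-type array, with 1408 of all genes), 0 in each of the 3 axonal comparisons, 9 to 14 between compartments and 1 to 7 for the interaction (7 without the second axonal empty vector or the second axonal knockdown array, with 2643 and 2355 of all genes). The counts of all genes for the ranges 7 to 9, 9 to 11 and 9 to 14 are not given here. The main fits of these comparisons called 9, 10 and 12 members and 28%, 36% and 61.6% of all genes. With the title number as a replicate block, 0 members passed between empty vector and wild-type cell bodies and in each axonal comparison, and 13 passed between compartments (11276 of all genes). The axonal knockdown arrays are numbered by another scheme than the controls, so their blocks were matched by number alone, without support in the labels. For the knockdown cell bodies no number was shared with the controls, and no block was fitted. The cause of these changes was not tested. Signal over background limits the axonal values: 11 members were above it on all 3 knockdown arrays, against 18 with the empty vector and 25 in wild-type axons.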
